A study of Homo sapiens with 12 samples.

Results

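The transcripts of the mitochondrial genome carried 25 of the 13290 entries in a pair of peak lists for RNA precipitated with an antibody to the modified base 1-methylguanosine (m1G). The members are all entries on the mitochondrial genome, 23 of 3705 summits in the MACS2 list (0.621%) and 2 of 9585 peaks in the MetDiff list (0.0209%). They were assigned by GRCh38 position to the 37 mitochondrial genes of RefSeq (GRCh38.p14), which are 13 mRNA genes, 2 rRNA genes and 22 tRNA genes. Genes are named here by their MT- symbols, and positions count from 1.

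The RNA came from PANC-1, an established human line from a pancreatic ductal adenocarcinoma, labelled as pancreas. All cells were transfected with siRNA, per the labels' protocols. Poly(A)-enriched RNA was fragmented and then either kept as input or precipitated with the m1G antibody. The 12 libraries of experiment 2 form 4 groups of 3, namely input and m1G IP of control cells, and input and m1G IP of cells depleted of TRMT5 for 4 days. Neither list splits its values by library or by condition. No group was therefore compared with another, and no value below has a replicate error. Depth of the libraries is unknown.

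The mitochondrial genome is transcribed from both strands as long precursors. The heavy-strand transcript holds both rRNAs, 12 of the mRNAs and 14 tRNAs, and the light-strand transcript holds MT-ND6 and 8 tRNAs. tRNAs lie between most of the other genes, and their excision by RNase P and ELAC2 releases the mRNAs and rRNAs, many of which then receive a short poly(A) tail. m1G is known from tRNAs: TRMT5 makes it next to the anticodon in cytosolic and mitochondrial tRNAs, and TRMT10C, a subunit of mitochondrial RNase P, makes it elsewhere in mitochondrial tRNAs.

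Both rRNA genes and nearly all mRNA genes of the mitochondrial genome held summits, and none lay in a tRNA gene. Of the 23 summits, 5 lay in the 2 rRNA genes, 17 in 11 of the 13 mRNA genes and 1 in no gene. Their −log10 q, the authors' measure of how sure a peak is and not of its size, had a lowest value of 9.61, a median of 41.6 and a highest of 120.9. The median of all 3705 summits was 13.7, and 22 of the 23 mitochondrial summits lay above it. Among the 25 chromosomes with a summit the mitochondrial genome had the highest median, and the nuclear chromosomes had medians between 5.37 and 20.4. Of the 50 highest values in the list, 7 were mitochondrial. These comparisons are descriptions, since summits on the same RNA are not independent and no test was run. The values are not a level of RNA or of m1G, and read counts are not known here.

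**Figure D1:**
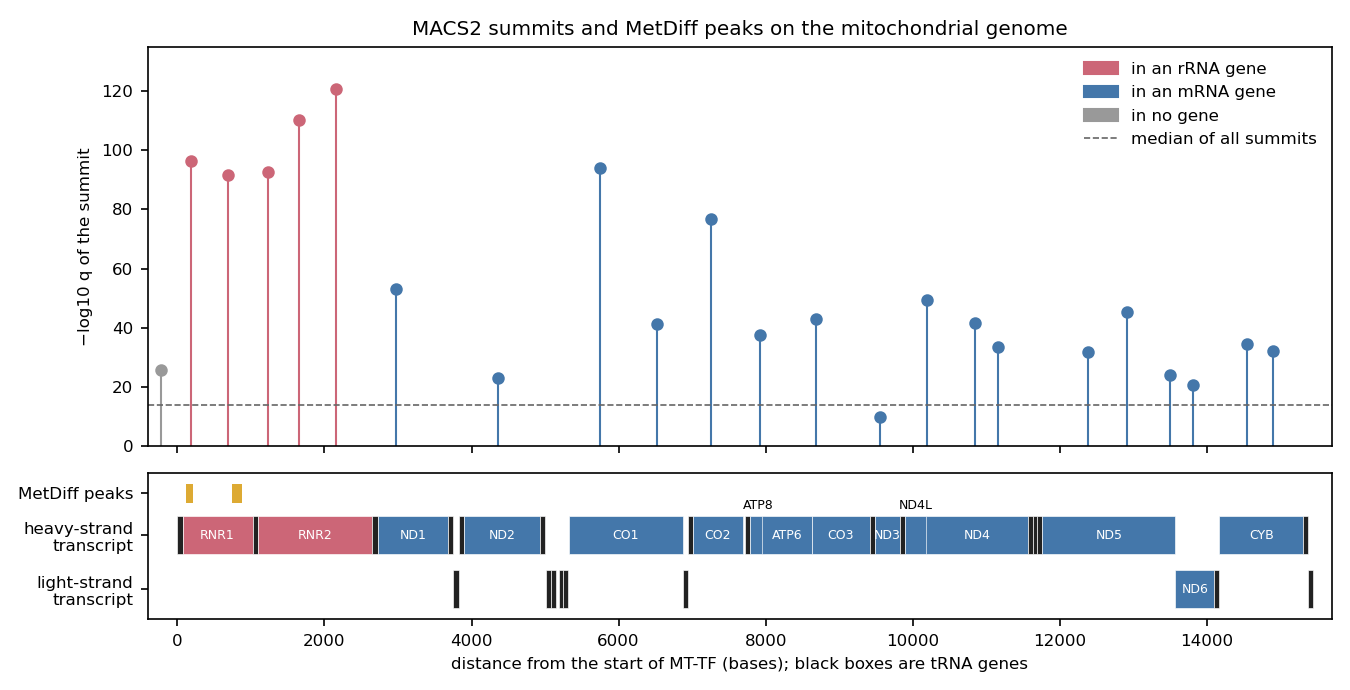
MACS2 summits on the mitochondrial genome, with −log10 q on the vertical axis and distance from the start of MT-TF in bases on the horizontal axis; boxes below are genes on the heavy-strand and light-strand transcripts (tRNA genes black), and yellow boxes are MetDiff peaks. The 5 rRNA summits sit between 91.8 and 120.9, the summit in MT-ND3 is the only one below the dashed median of all summits (13.7), and both MetDiff peaks lie over MT-RNR1.

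The rRNA genes held the highest mitochondrial values, together with MT-CO1. MT-RNR1 (positions 648 to 1601), the RNA of the small mitochondrial ribosomal subunit, had summits at position 762 with −log10 q of 96.4 and at 1269 with 91.8. MT-RNR2 (1671 to 3229), the RNA of the large subunit, had summits at 1804 with 92.7, at 2236 with 110.4 and at 2730 with 120.9. The median over the 5 rRNA summits was 96.4, against 37.6 over the 17 mRNA summits, and 1 mRNA summit lay above the lowest rRNA summit. Summits were spaced at 1.99 per kilobase in the rRNA genes and at 1.49 per kilobase in the mRNA genes.

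MT-RNR1 was also the sole mitochondrial gene with MetDiff peaks, 1 of the 4515 gene IDs in that list. Its first peak, at positions 696 to 791 on the plus strand, had a fold of 1.27 with a p-value of 1.2e-05 and a false discovery rate (FDR) of 7.24e-05. The other, at 1315 to 1458 on the plus strand, had a fold of 1.47 with a p-value of 1.6e-06 and an FDR of 1.55e-05. These folds are the authors', taken as IP over input from the place of the column, which no header states. Both lay at the low end of the list, whose median fold was 4.50: 0.282% of all MetDiff peaks had a fold at or below the first and 1.37% at or below the other. Their p-values were less extreme within the list, with 37.4% and 22.1% of peaks at or below them. The plus strand is the sense strand of MT-RNR1.

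The MetDiff peaks together covered 240 bases, or 25.2% of MT-RNR1, with 523 bases between them. The first began 49 bases after the end of MT-TF, the tRNA gene before MT-RNR1, and held the summit at 762. The other ended 144 bases before MT-TV, the tRNA gene after it, and the nearest summit, at 1269, lay 46 bases before its start. Thus 1 of the 23 mitochondrial summits lay inside a MetDiff peak. All 3 summits in MT-RNR2 and all 17 in mRNA genes were at least 346 bases from a MetDiff peak.

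**Figure D2:**
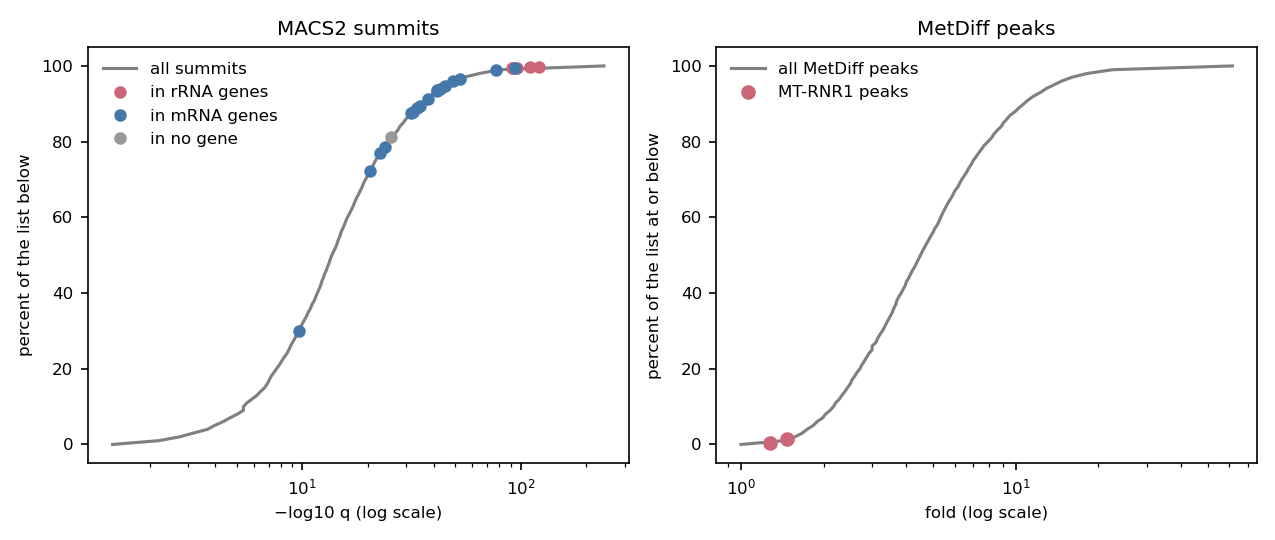
Place of the mitochondrial entries in each list: left, −log10 q (log scale) against the percent of all summits below that value; right, the authors' fold (log scale) against the percent of MetDiff peaks at or below it, with grey lines for the whole lists. Mitochondrial summits lie mostly in the upper part of the MACS2 list, whose median is 13.7, while both MT-RNR1 peaks (folds 1.27 and 1.47) lie at the foot of the MetDiff list, whose median is 4.50.

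Among the mRNA genes, 11 of 13 (84.6%) held a summit, where 8.25% of the 20050 protein-coding genes of the RefSeq table did. That background includes genes that the cells do not express. In the MetDiff list 0 of 13 held a peak, where 18.5% of protein-coding genes did. The genes without a summit were MT-ATP6 and MT-ND4L, and each shares its mRNA with a gene that had one. MT-ATP8 and MT-ATP6 are read from one bicistronic mRNA, in which the summit lay 23 bases before the start of MT-ATP6. MT-ND4L and MT-ND4 are read from another, with a summit 8 bases past the end of MT-ND4L. Counted by the span of each mature mRNA, 11 of 11 had a summit. This count includes MT-ND6, where the strand of the bound RNA is not known.

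Complex IV, cytochrome c oxidase, held the 2 strongest mRNA summits. MT-CO1 (5904 to 7445), which encodes the catalytic subunit, had summits at 6318 with −log10 q of 94.0 and at 7105 with 41.3. MT-CO2 (7586 to 8269), the subunit that receives electrons from cytochrome c, had 1 summit at 7838 with 76.8, and MT-CO3 (9207 to 9990) had 1 at 9261 with 42.9. The median over the 4 complex IV summits was 59.9. The summits of MT-CO1 differed by more than those of any other mRNA gene with several summits: the earlier one ranked 21 in the list and the later one 244.

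Complex I, NADH dehydrogenase, had 6 of its 7 mitochondrial genes with a summit and 10 summits in all, with a median of 32.5. MT-ND1 (3307 to 4262) had the highest value of them, 53.0 at position 3550, and MT-ND2 (4470 to 5511) had 22.8 at 4934. MT-ND3 (10059 to 10404), the shortest mRNA gene with no partner on its mRNA, had the lowest value on the mitochondrial genome, 9.61 at 10133. This was the only member below the median of the whole list.

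MT-ND4 and MT-ND5 encode proton-pumping subunits of complex I and held 3 summits each. In MT-ND4 (10760 to 12137) they were at 10774 with −log10 q of 49.2, at 11426 with 41.6 and at 11740 with 33.4. In MT-ND5 (12337 to 14148) they were at 12957 with 31.6, at 13490 with 45.2 and at 14079 with 23.8. The first summit of MT-ND4 lay at base 15 of the gene, which was the closest to an end of its own gene of any summit, and the last of MT-ND5 lay 69 bases before its end.

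MT-CYB (14747 to 15887), which encodes the cytochrome b of complex III, had summits at 15116 with 34.5 and at 15477 with 32.0. Complex V, ATP synthase, had a single summit at 8504 with 37.6, in MT-ATP8 (8366 to 8572). It lay before the stretch that MT-ATP8 shares with MT-ATP6 (8527 to 9207).

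The summits did not gather at one end of the mRNA genes. With each gene cut into 3 equal parts in its direction of transcription, 6 of the 17 lay in the opening part, 7 in the middle part and 4 in the closing part. The parts are of single genes, also where genes share an mRNA. The MT-ATP8 summit, counted in the closing part, lay at base 139 of the gene, which opens a shared stretch of 842 bases. Of the 22 summits in genes, 1 lay within 50 bases of an end of the gene it was assigned to. Values were lower at higher positions, with a rank correlation (Spearman rho) of −0.71 between position and −log10 q over the 22 summits in genes. Over the 17 mRNA summits alone rho was −0.44. Both sets include the summit in MT-ND6, a gene of the light-strand transcript. In 19 of the 22 pairs of neighbouring summits both belonged to the same numbered peak, so the points are not independent and rho describes only the order of the values.

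By strand of origin, 21 summits lay in 12 of the 28 genes of the heavy-strand transcript and 1 in the 9 genes of the light-strand transcript. The latter was in MT-ND6 (14149 to 14673), a complex I gene, at position 14383 with −log10 q of 20.5. The genes of the light-strand transcript are few and short, with 1077 bases in all against 14339, and held 0.929 summits per kilobase against 1.46. MACS2 summits carry no strand. The heavy-strand precursor also runs through the region opposite MT-ND6, so whether the bound RNA was MT-ND6 mRNA or the opposite strand cannot be told apart. Both MetDiff peaks, the only mitochondrial entries with a strand, were in a gene of the heavy-strand transcript. Entries of that list carry a gene ID, so their strand may be that of the annotated gene. It does not show which strand was bound.

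The summit outside all genes was at position 349, in the non-coding control region where transcription of both strands starts. It had −log10 q of 25.6 and lay 228 bases before MT-TF, the first gene of the heavy-strand transcript. As it carries no strand, it cannot be assigned to the heavy-strand or the light-strand transcript. No summit lay after the last gene.

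tRNAs are the known carriers of m1G in mitochondria, and 0 of the 22 tRNA genes held a summit or a MetDiff peak. A summit is a single base, and some numbered MACS2 peaks ran across tRNA genes. From its first to its last summit, the first numbered peak spanned 3 tRNA genes and the last spanned 7. The distance from a summit to the nearest tRNA gene ran from 75 to 1154 bases, with a median of 374. Within 150 bases of a tRNA gene lay 4 summits, each of them after the tRNA, in the next gene. They were in MT-ND3, 75 bases after MT-TG (tRNA-Gly), in MT-RNR1, 115 bases after MT-TF (tRNA-Phe), in MT-RNR2, 134 bases after MT-TV (tRNA-Val), and in MT-ATP8, 140 bases after MT-TK (tRNA-Lys). The last of these was nearer to the 3′ end of its short gene, at base 139 of 207, and the other 3 were in the 5′ part of theirs.

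As a background for these distances, the share of bases near tRNA genes was counted. Between the first and the last gene, 31.4% of all bases lay inside or within 150 bases of a tRNA gene, while 18.2% of the 22 summits there did. tRNA genes themselves made up 9.74% of those bases. The tRNA gene before the summit was nearer for 13 of the 23 summits, and the one after it for 10. Spearman rho between distance to the nearest tRNA gene and −log10 q was 0.021 over the 23 summits. The libraries were made from poly(A)-enriched fragments, so a tRNA gene without a summit says nothing about m1G in mature tRNAs.

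**Figure D3:**
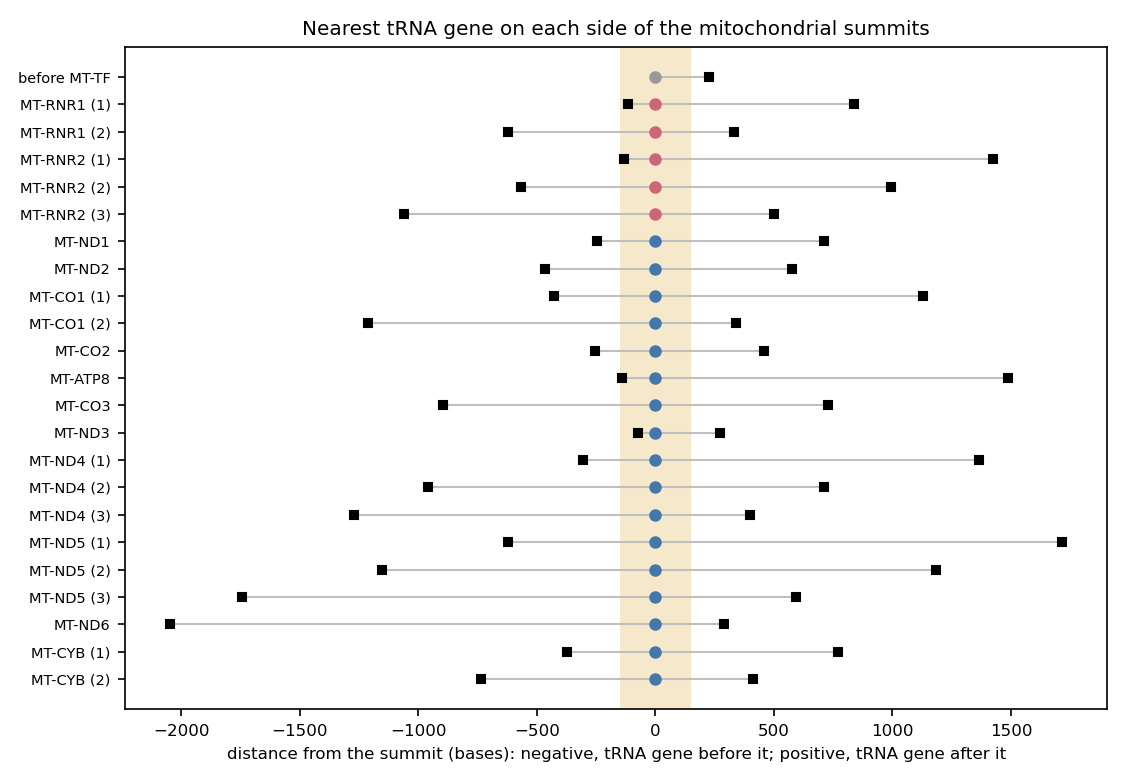
Each row is a mitochondrial summit (circle; red in rRNA genes, blue in mRNA genes, grey in no gene) with the nearest tRNA gene before and after it (black squares) at its distance in bases. The shaded band is 150 bases to each side, and 4 squares fall in it, all on the left, at 75, 115, 134 and 140 bases.

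Between the first and the last summit, at positions 349 and 15477, the longest gaps were those that hold clusters of 3 or more tRNA genes. The genome is circular, and the stretch from the last summit round to the first is not among these gaps. It holds the control region and 2 tRNA genes, MT-TT and MT-TP. Its length was not computed and may be greater than that of any gap given here, so the pattern is not stated for the whole circle. Gaps between neighbouring summits ran from 304 to 1384 bases with a median of 646.5 over 22 gaps. Both longest of these gaps were 1384 bases, from MT-ND1 to MT-ND2 across MT-TI, MT-TQ and MT-TM, and from MT-ND2 to MT-CO1 across MT-TW, MT-TA, MT-TN, MT-TC and MT-TY. The next, of 1217 bases, ran from MT-ND4 to MT-ND5 across MT-TH, MT-TS2 and MT-TL2. These 3 gaps held 11 of the 20 tRNA genes that lie between the first and last summit.

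The 8 gaps with 1 or 2 tRNA genes had a median of 699.5 bases and a highest of 872. The 11 gaps with no tRNA gene had a median of 507 and a highest of 787. With the bases of the tRNA genes themselves taken off, the 3 longest gaps were still at least 1018 bases, and none of the other 19 exceeded 804. A longer gap has more room for tRNA genes, and taking off their bases does not remove this. The lengths are therefore descriptions, and a link between tRNA genes and gap length was not tested.

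**Figure D4:**
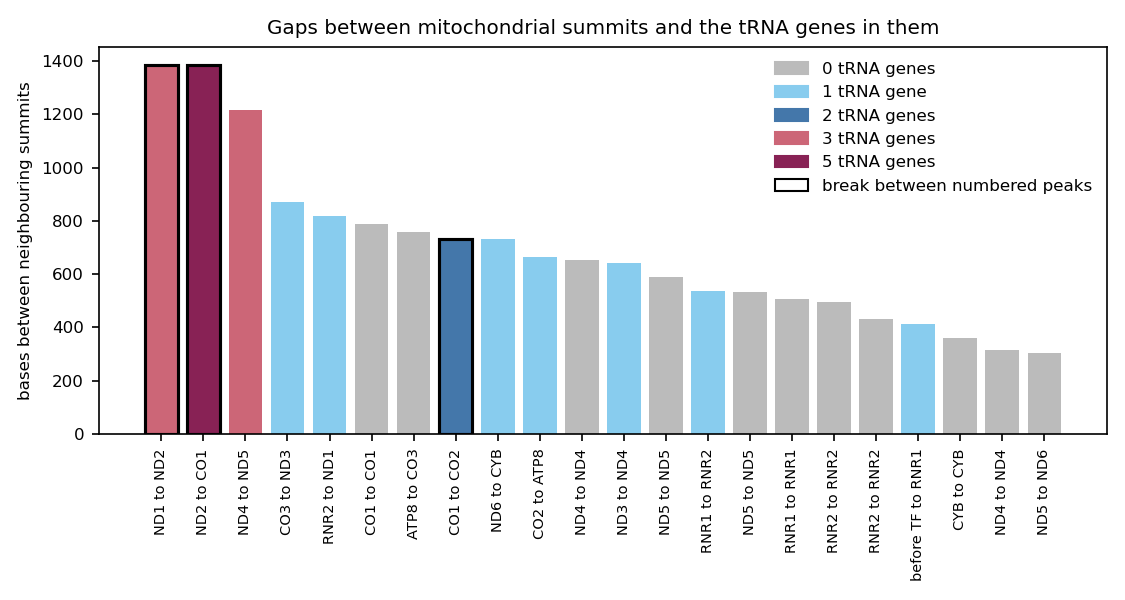
Bases between neighbouring mitochondrial summits, in order of length, coloured by the number of tRNA genes in the gap; outlined bars are breaks between numbered MACS2 peaks. The 3 gaps with 3 or 5 tRNA genes, at 1384, 1384 and 1217 bases, are longer than the other gaps plotted, which end at 872; the stretch from the last summit round the circular genome to the first is not plotted.

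The names of the summits give a peak number, with letters where a peak has several summits, and the 23 summits belonged to 4 numbered peaks. The first held 7 summits from position 349 to 3550, through both rRNA genes and 3 tRNA genes into MT-ND1. MT-ND2 had a peak of its own with 1 summit, and MT-CO1 had another with 2. The last held 13 summits from 7838 to 15477, over 7639 bases and 17 genes from MT-CO2 to MT-CYB, 7 of them tRNA genes. The first and the last were the peaks with the most summits of all 3456 in the list: no nuclear peak had more than 5, and 5.79% of all numbered peaks had over 1.

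All 3 breaks between the numbered peaks fell in gaps that hold tRNA genes of the light-strand transcript. They were MT-TQ in the first break, MT-TA, MT-TN, MT-TC and MT-TY in the next, and MT-TS1 between MT-CO1 and MT-CO2. MT-TE, another light-strand tRNA gene, lay inside the last peak. Within numbered peaks the median gap was 589 bases on the mitochondrial genome (19 gaps) and 369.5 bases in nuclear peaks (230 gaps). Summits of nuclear peaks with several summits had a median −log10 q of 13.3 (427 summits), near that of the whole list.

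Copies of mitochondrial sequence in the nuclear genome can share reads with these genes. The RefSeq table held 487 nuclear genes named as such copies, and 1 of them had a summit while 0 had a MetDiff peak. This was MTRNR2L1, a copy of part of MT-RNR2 on chromosome 17 (22523415 to 22524663), with −log10 q of 10.6 at position 22524334. The treatment of reads that match several places is not known here, so reads of MT-RNR2 and MTRNR2L1 cannot be told apart.

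Nuclear genes that make, cut and modify mitochondrial RNA were taken as the other genes of the pathway. Of 46, 6 held a summit (13.04%) and 15 a MetDiff peak (32.6%), beside 8.25% and 18.5% of all protein-coding genes. Here too the background includes genes that the cells do not express, and no test was run. FASTKD5 overlapped 3 entries but was not the sole gene at them, so it was not counted. All 6 genes with a summit were among the 15. A fold given below is the highest of the gene, and its peak need not lie at the summit. Of the 5 transcription genes, POLRMT, the mitochondrial RNA polymerase, had a summit with −log10 q of 20.1 and a MetDiff fold of 8.31, and TFAM, which packages and activates the mitochondrial genome, had a fold of 3.56. Of the 4 genes that cut at tRNA ends, ELAC2, which trims the 3′ end, had 8.61 and a fold of 7.80, and HSD17B10 had 6.86 and 3.54. TRMT10C and PRORP, which form mitochondrial RNase P with HSD17B10, held no entry in either list.

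Among 15 genes of poly(A) and stability, 4 had MetDiff peaks, of which 1 also held a summit. LRPPRC, which stabilises mitochondrial mRNAs, had the strongest summit of the whole pathway (20.9), at position 43946336 of chromosome 2. Its MetDiff peak, with a fold of 1.39, was elsewhere in the gene, at 43963793 to 43973695. FASTK had the highest fold (21.3). REXO2, which degrades short RNA, had a fold of 11. The 22 modification genes included 7 with MetDiff peaks, of which 2 also held summits. TRMT5, the gene targeted by siRNA, had a highest fold of 17.8 and no summit. PUS1, a pseudouridine synthase, had −log10 q of 19.7 and a fold of 9.40, and QTRT1, of the queuine pathway, had 11.97 and a fold of 11.

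As a check of the labelled cell type, 4 of 8 markers of pancreatic duct and epithelium had a MetDiff peak (KRT8, KRT18, KRT19 and SOX9) and 2 of them a summit. Markers of acinar cells (0 of 5), islets (0 of 4) and immune cells (0 of 4) had no entry. KRT7, EPCAM, MUC1 and CFTR had none either, and COL1A1 was the 1 of 5 fibroblast and stellate markers with entries. Over all 26 markers, 19.2% had a MetDiff peak and 11.5% a summit, near the 18.5% and 8.25% of all protein-coding genes, so these counts neither bear out nor contradict the label. A peak shows that the list holds the gene, not the level of its RNA.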

How the data were processed

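m1G immunoprecipitates and inputs of poly(A)-enriched RNA were sequenced. Per the submitters' processing notes, tools included STAR 2.7.1, MACS2 2.2.5, edgeR and DESeq2 with GRCh38, with no role or order given. The libraries behind each list, and any pooling of replicates, are not stated. The deposited lists have no header. The authors' MACS2 value was read as −log10 q (a q-value per summit), since its lowest value is 1.35. In the MetDiff list the authors gave a p-value, a log10 FDR and a ratio per peak. The deposited ratio was read as the fold of IP over input, though it could be a ratio of another contrast.

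Entries were placed on RefSeq gene spans with Python 3.11.15 and pandas 2.3.3. Distances run from the summit to the nearest base of the gene. A nuclear gene was counted when it was the sole gene at an entry. The code for gene and tRNA assignment was run on simulated positions drawn from the same spans (200 of 200 recovered for genes). This checks neither the coordinates of the spans nor those of the deposited entries. Strand and shared mRNAs of mitochondrial genes were taken from general knowledge. All 37 mitochondrial genes are accounted for; in the nuclear pathway list the 4 strongest by each value, TRMT5 and TRMT10C were to be named, and TFAM, ELAC2 and HSD17B10 were named after their values were seen, as were KRT and other markers. Members and lists were chosen with earlier results of these data known. No sequence was printed, and no test across samples was made. No library depth or replicate error could be given.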

Additional observations from a re-analysis of the deposited data

How the results depend on the processing

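The lists hold no libraries, so leaving out a replicate could not be run. No paired analysis was possible because no column of either list belongs to a library. Of 24 alternatives over 9 results, 16 stayed within 1.5 times the count or 1 SD of the median and 8 did not. Summits near a tRNA gene depended on the distance: 0 within 50 bases, 1 within 100 and 8 within 300, against 4 within 150. tRNA genes with a summit went from 0 to 4 when summits within 150 bases were counted. Mitochondrial summits at a MetDiff peak went from 1 to 2 with a margin of 50 bases and to 2 with 150. MetDiff peaks on the mitochondrial genome went from 2 to 0 at a fold of at least 2. Summits in light-strand genes went from 1 to 2 within 150 bases, by the last summit of MT-ND5. With a −log10 q of at least 10, MT-ND3 dropped out, leaving 22 summits and 10 mRNA genes. Within 50 bases of the span, 13 of 13 mRNA genes held a summit. The median of the mitochondrial summits without those in rRNA genes was 36.1.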
